A study of Homo sapiens with 6 samples.

Results

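Fatty acid metabolism was followed through 50 genes of EndoC-betaH1 cells, a human pancreatic beta cell line. The rule lists the genes by name and role, and no cut on a measured value enters it. They cover acetyl-CoA supply and fatty acid synthesis (5), desaturation (4), elongation (6), activation to acyl-CoA (4), the carnitine shuttle (3), mitochondrial oxidation (10), electron transfer (3), peroxisomal oxidation (2), triglyceride storage (6), lipolysis (2), the lipid droplet coat (2) and regulators (3). All 50 were found among the 55868 named loci of the authors' deposited count table, which together with unnamed loci listed 61695. Of the 50, 49 were tested there, and 48 were tested in the deposited FPKM gene table (fragments per kilobase of transcript, scaled to depth). A locus is a bundle of assembled transcripts, and 9 of the 50 genes sat in a locus that also named another gene.

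Poly(A) RNA was sequenced from 3 libraries of cytokine-exposed cells and 3 libraries of control cells. The cytokine cells received IL-1β at 5 ng/ml, TNF-α at 10 ng/ml, IFN-γ at 50 ng/ml and IL-17 at 100 ng/ml together for 24 h, so no effect can be assigned to one cytokine. All cells of both groups had first adhered for 24 h in serum-free medium with 11 mM glucose and albumin. The control libraries are labelled as taken before exposure, whereas the extraction notes describe untreated cells kept for the same time, and an effect of time in culture cannot be told apart from that of the cytokines. No label states whether the libraries of a group were separate cultures, so the p-values cover only how these libraries vary, which may be a technical spread. EndoC-betaH1 is a single line, immortalised from fetal pancreas with a viral oncogene.

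The deposited tables hold group values only, so the values of single libraries, and whether the groups overlap, were not analysed here. Summed over loci, the deposited means came to 40881975 normalized counts for a library. Beta cell markers were present: PDX1 and NKX6-1 were listed at 146 and 90.3 FPKM in cytokine cells, and neither passed the threshold. The locus that holds INS, and names 7 genes in all, had 38102 normalized counts in cytokine cells and 56569 in control cells in the deposited count table (log2 fold change -0.57 ± 0.047, SE), while the FPKM table listed INS at 0. Adipocytes and hepatocytes, cells with strong lipid metabolism, left little trace in the deposited FPKM table. ADIPOQ and LEP were at or near 0 in both groups, and all 3 hepatocyte markers were under 1 FPKM in both. PLIN1 was at 0.107 FPKM in cytokine cells and 0.0987 FPKM in control cells, and CIDEC at 10.7 and 10.3 FPKM in cytokine and control cells. In bulk RNA, fewer cells with a transcript and less of it per cell cannot be told apart.

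Fatty acid synthesis builds palmitate from acetyl-CoA, which ATP citrate lyase and acetyl-CoA synthetase supply and acetyl-CoA carboxylase turns into malonyl-CoA. Palmitate is then desaturated, elongated, esterified into triglyceride, or activated again and oxidised in mitochondria. Malonyl-CoA also blocks carnitine palmitoyltransferase 1, the gate to oxidation. In beta cells, this switch between synthesis and oxidation is tied to glucose sensing, and long exposure to saturated fatty acids is toxic to them.

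Across the list, 20 genes rose and 23 fell in the authors' DESeq test, with a threshold of 0.05 on the adjusted p, and 6 did not pass it. Over all 30206 tested loci in the deposited table, 37.7% passed, 18.0% as higher and 19.7% as lower. Abundant loci passed far more often: among 9853 loci with a mean of at least 500 normalized counts, 76.1% passed, 32.0% as higher and 44.1% as lower. Of the 46 list genes at that abundance, 41 passed (89.1%), 19 as higher and 22 as lower. Most changes were small. The median size of the log2 fold change of these 46 was 0.26, beside 0.25 for all 9853 abundant loci, and the signed medians were -0.07 and -0.06. Of the 43 list genes past the threshold, 18 differed by less than 1.2-fold in the deposited table. A log2 fold change of at least 0.5 in size was reached by 11 past the threshold, against 18.4% of all tested loci, and one of at least 1 by 6, against 9.8% of all and 8.12% of abundant loci. In abundant loci, 23.1% reached 0.5.

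In the deposited FPKM gene table, 16 of 48 list genes were higher and 14 lower at a q threshold of 0.05. There, 35.7% of 21865 tested genes passed, 17.8% as higher and 17.9% as lower. Both tables were made from the same libraries and are no independent check of each other. Among list genes, 29 passed in both with the same sign and 0 passed with opposite signs.

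**Figure D1:**
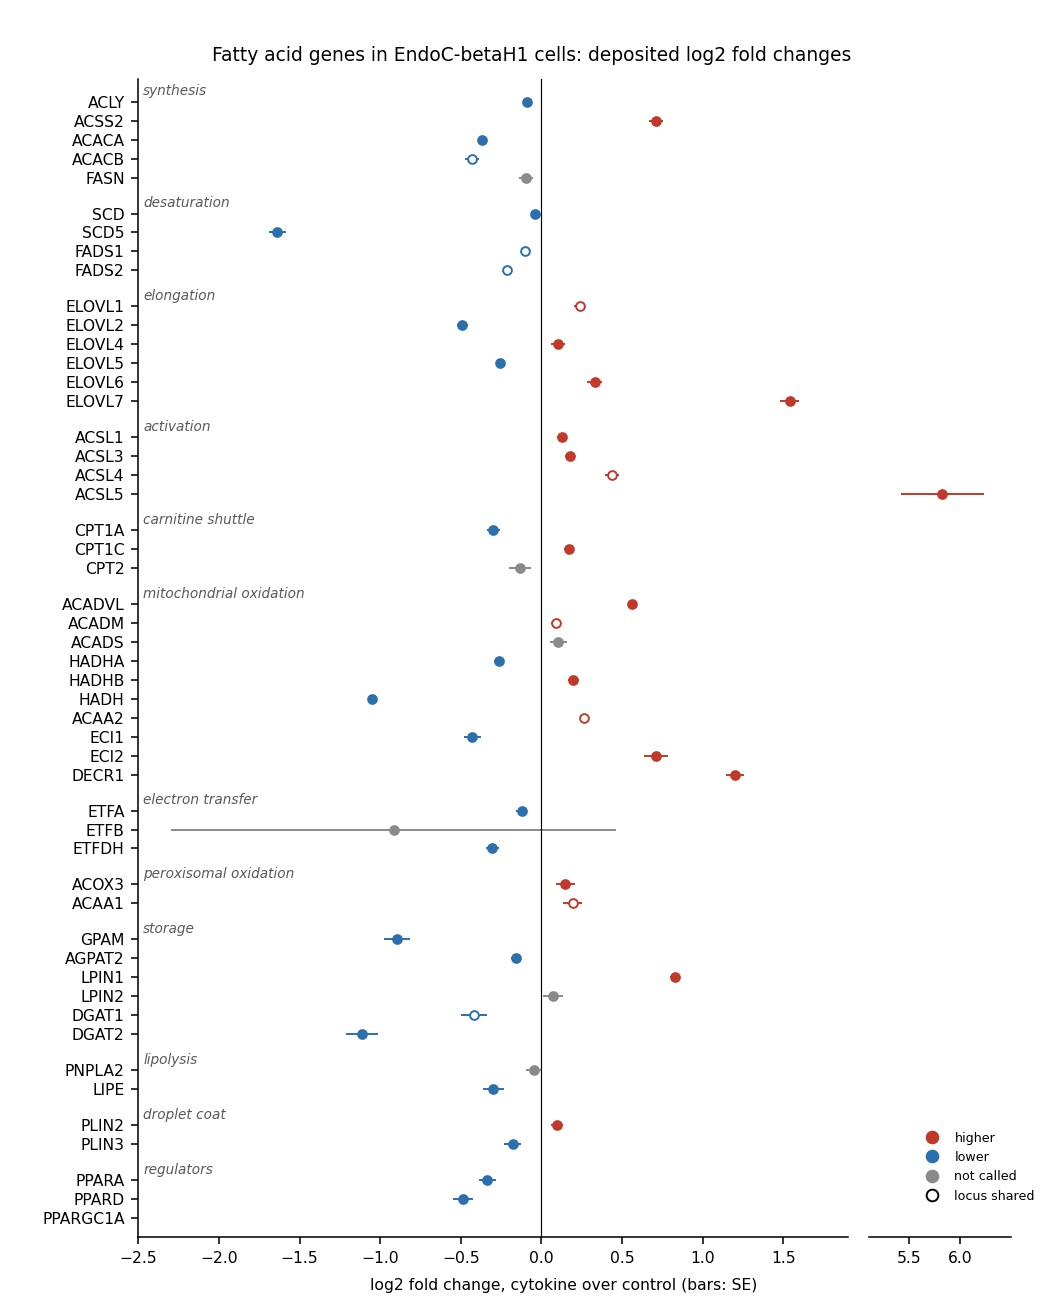
Deposited log2 fold changes of 49 list genes, cytokine over control, by role, with the SE of the authors' fit as bars; red points were higher, blue lower and grey not past the adjusted p threshold of 0.05, open points belong to loci that name another gene, and the axis is broken for ACSL5. Most points lie within 0.5 of 0, and SCD5, DGAT2, HADH, DECR1, ELOVL7 and ACSL5 lie beyond 1; PPARGC1A was not tested and has no point.

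Of the 9 genes of synthesis and desaturation, 1 rose, 7 fell and 1 did not pass in the deposited count table, where 44.1% of abundant loci were lower and 32.0% higher. Their median log2 fold change was -0.10. In the deposited FPKM table ACSS2 was higher, ACACB and SCD5 were lower, and the other six did not pass. All but ACSS2 and SCD5 moved by less than 0.5. ACSS2 (chromosome 20, 34872146 to 34927962), the cytosolic enzyme that makes acetyl-CoA from acetate, was the one that rose. It had 3809 normalized counts in cytokine cells and 2329 in control cells in the deposited table, a log2 fold change of 0.71 ± 0.043 (DESeq adjusted p = 2.31e-60). ACLY, which makes acetyl-CoA from citrate, was the more abundant source, at 201 FPKM in cytokine cells and 207 FPKM in control cells in the deposited table. Its log2 fold change was -0.09 ± 0.018 in the count table. It did not pass in the FPKM table (q = 0.697), nor with fold changes re-centred on abundant loci (adjusted p = 0.133).

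Both carboxylases, which make malonyl-CoA, were lower in the deposited count table. ACACA, the cytosolic form used for synthesis, had 6036 normalized counts in cytokine cells and 7783 in control cells (log2 fold change -0.37 ± 0.026), but did not pass in the FPKM table (q = 0.131). ACACB, the form at the outer mitochondrial membrane, had 1934 counts in cytokine cells and 2604 in control cells in the deposited table (-0.43 ± 0.042), in a locus that also names a non-coding RNA. FASN, the synthase itself, did not pass in either deposited table. It had 23938 counts in cytokine cells and 25604 in control cells (-0.10 ± 0.045, adjusted p = 0.0741), and 118 FPKM in cytokine cells and 107 FPKM in control cells (log2 fold change 0.14, q = 0.444).

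The 2 stearoyl-CoA desaturases put the first double bond into saturated acyl chains. SCD was the most abundant gene of the list in the deposited FPKM table, at 521 FPKM in cytokine cells and 519 FPKM in control cells. Its counts were 120937 in cytokine cells and 124287 in control cells, a log2 fold change of -0.04 ± 0.014. It fell by 2.69% and passed the threshold (adjusted p = 0.0147), but did not pass in the FPKM table (q = 0.966). SCD5 (chromosome 4, 82629539 to 82798796), the second human form, had the largest fall of the list. It stood at 669 normalized counts in cytokine cells and 2082 in control cells in the deposited table, a log2 fold change of -1.64 ± 0.055 (adjusted p = 2.18e-196). In the deposited FPKM table it was at 5.25 FPKM in cytokine cells and 15.8 FPKM in control cells, and SCD exceeded it 99.3-fold in cytokine cells and 32.9-fold in control cells. A single SCD5 transcript, ENST00000319540.7, held 99.0% of the SCD5 level in both groups and was itself lower in the deposited isoform table (q = 0.000833).

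The fatty acid desaturases FADS1 and FADS2, which make polyunsaturated chains, changed little. FADS1 had 18118 counts in cytokine cells and 19456 in control cells in the deposited table (log2 fold change -0.10 ± 0.018), and did not pass in the FPKM table (q = 0.84). The FADS2 locus had 22889.8 counts in cytokine cells and 26501 in control cells (-0.21 ± 0.019), did not pass in the FPKM table (q = 0.612), and also holds FEN1, a nuclease of DNA replication. Transcripts of FADS2 alone summed to 408 FPKM in cytokine cells and 414 FPKM in control cells in the deposited isoform table, a log2 ratio of -0.02. Those of FEN1 summed to 29.1 FPKM in cytokine cells and 55.8 FPKM in control cells, although none of them passed the threshold alone.

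**Figure D2:**
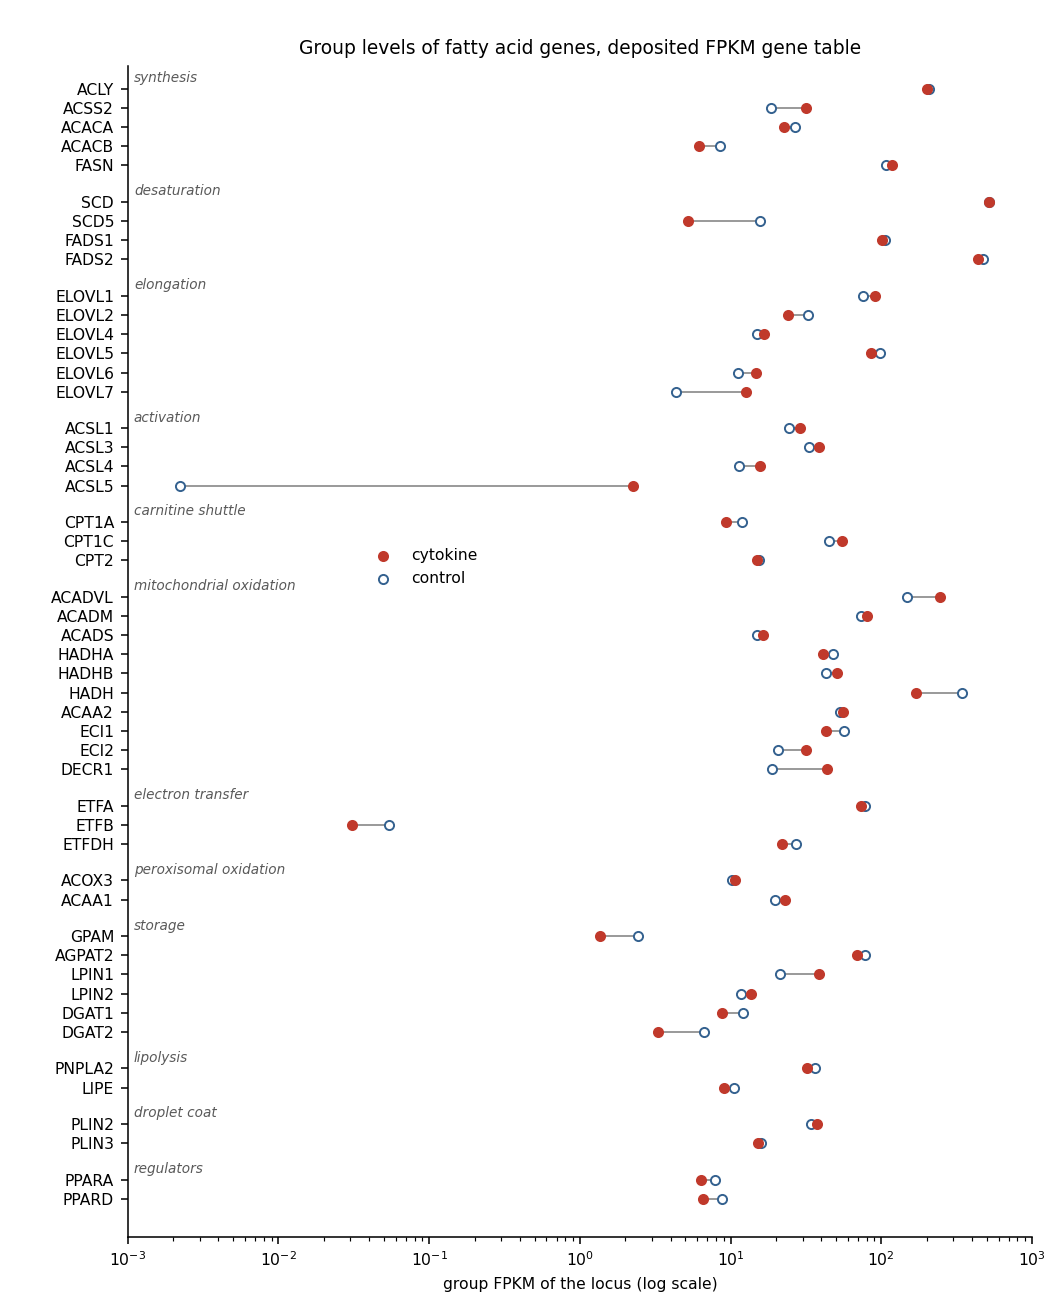
Group levels of 49 list genes in the deposited FPKM gene table on a log axis, by role; filled red points are cytokine cells, open blue points control cells, and lines join the groups. SCD, at 521 FPKM in cytokine cells and 519 FPKM in control cells, tops the list, and ACSL5 spans the widest gap, with 2.26 FPKM in cytokine cells and 0.00221 FPKM in control cells.

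Elongases add carbons in pairs to acyl chains that are already long, each with its own preferred substrate. Of 6, 4 rose and 2 fell in the deposited count table (median log2 fold change 0.17), where 32.0% of abundant loci were higher and 44.1% lower. All 6 also passed with the same sign in the FPKM table, where 35.7% of tested genes passed. ELOVL7 (chromosome 5, 60751791 to 60844274), which acts on saturated and monounsaturated chains, led. It had 2028 normalized counts in cytokine cells and 698 in control cells in the deposited table, a log2 fold change of 1.54 ± 0.057 (adjusted p = 1.30e-161). Its level was 12.6 FPKM in cytokine cells and 4.33 FPKM in control cells in the deposited FPKM table. Both of its named transcripts that passed rose, ENST00000508821.4 with 7.11 FPKM in cytokine cells and 2.49 FPKM in control cells, and ENST00000425382.4 with 1.8005 FPKM and 0.583 FPKM in cytokine and control cells. An unnamed transcript of the locus also rose, with 2.84 FPKM in cytokine cells and 0.745 FPKM in control cells in the deposited isoform table.

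ELOVL2 and ELOVL5, which act on polyunsaturated chains, fell. ELOVL2 had 4219 counts in cytokine cells and 5929 in control cells in the deposited table (log2 fold change -0.49 ± 0.034). ELOVL5, the most abundant elongase, was at 85.2 FPKM in cytokine cells and 98.4 FPKM in control cells (-0.26 ± 0.021 in the deposited count table). The ratio of ELOVL5 to ELOVL7 in the deposited FPKM table was 6.76 in cytokine cells and 22.7 in control cells. ELOVL6, which takes palmitate to stearate, rose by 0.33 ± 0.048 in the deposited table. ELOVL1 and ELOVL4, which make very long chains, rose by 0.24 ± 0.032 and 0.10 ± 0.043. The ELOVL1 locus also holds MED8, whose transcripts summed to 28.7 FPKM in cytokine cells and 22.5 FPKM in control cells in the deposited isoform table, while those of ELOVL1 summed to 60.8 and 52.2 FPKM in cytokine and control cells.

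Long-chain acyl-CoA synthetases activate free fatty acids for every later use. The 4 on the list rose in the deposited count table (median log2 fold change 0.31), where 32.0% of abundant loci were higher, and 3 of them rose in the FPKM table. ACSL6, a synthetase outside the list in a locus that names another gene, did not pass in the deposited count table (0.40 ± 0.18, adjusted p = 0.0668) but was higher in the FPKM table (q = 0.0082). ACSL5 (chromosome 10, 112374116 to 112428379), found at mitochondria and the endoplasmic reticulum, was nearly silent in control cells. It had 253 normalized counts in cytokine cells and 4.45 in control cells in the deposited table, a log2 fold change of 5.83 ± 0.41 (adjusted p = 1.69e-44), or 56.7-fold. It was the least abundant synthetase of the 4 in both groups, at 2.26 FPKM in cytokine cells and 0.00221 FPKM in control cells in the deposited FPKM table. The other three were higher by less. ACSL3, the lipid droplet form and the most abundant, was at 38.8 FPKM in cytokine cells and 33.3 FPKM in control cells (0.18 ± 0.029 in the deposited count table, q = 0.0587 in the FPKM table). ACSL1 and ACSL4, the form that prefers arachidonate, rose by 0.13 ± 0.031 and 0.44 ± 0.043 in the deposited table. The ACSL4 locus also names KCNE5, listed at 0.0534 FPKM in cytokine cells and 0.0540 FPKM in control cells. Summed over the 4 loci, activation stood at 85.5 FPKM in cytokine cells and 69.2 FPKM in control cells in the deposited table.

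The bases before the starts of SCD5, ELOVL7, ACSL5 and HADH are shown because these genes changed by more than 1 on the log2 scale. DECR1 and DGAT2 also did, but had no RefSeq window at hand. The bases before HADHB are shown because they lie between a pair of genes that changed in opposite directions. Each is the 250 bases upstream of the RefSeq start nearest to the transcript with the highest FPKM summed over both groups, on GRCh38.p14, 5′ to 3′ on the strand of the gene. For ACSL5, ENST00000354273.4 was used, which tied with ENST00000356116.4 at 1.11 FPKM in cytokine cells and 0 FPKM in control cells in the deposited isoform table. Capitals mark GC boxes (GGGCGG) and CCAAT boxes (CCAAT) on either strand, and none of these matches overlap here.
SCD5 (chr4:82798797-82799046, minus strand): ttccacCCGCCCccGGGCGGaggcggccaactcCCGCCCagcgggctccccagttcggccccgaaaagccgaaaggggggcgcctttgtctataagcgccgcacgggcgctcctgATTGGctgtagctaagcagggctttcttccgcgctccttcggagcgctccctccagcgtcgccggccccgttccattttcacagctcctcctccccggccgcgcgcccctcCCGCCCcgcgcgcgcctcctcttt
ELOVL7 (chr5:60844270-60844519, minus strand): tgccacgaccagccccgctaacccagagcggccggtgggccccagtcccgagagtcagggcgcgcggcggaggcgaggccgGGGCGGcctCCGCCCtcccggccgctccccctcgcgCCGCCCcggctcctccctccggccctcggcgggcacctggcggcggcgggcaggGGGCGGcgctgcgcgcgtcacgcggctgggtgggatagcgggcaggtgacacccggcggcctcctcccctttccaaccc
ACSL5 (chr10:112375955-112376204, plus strand): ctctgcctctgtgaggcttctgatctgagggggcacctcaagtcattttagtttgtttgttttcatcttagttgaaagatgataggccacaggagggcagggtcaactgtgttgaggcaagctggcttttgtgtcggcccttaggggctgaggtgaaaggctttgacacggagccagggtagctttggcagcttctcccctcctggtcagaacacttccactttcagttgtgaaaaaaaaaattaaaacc
HADH (chr4:107989639-107989888, plus strand): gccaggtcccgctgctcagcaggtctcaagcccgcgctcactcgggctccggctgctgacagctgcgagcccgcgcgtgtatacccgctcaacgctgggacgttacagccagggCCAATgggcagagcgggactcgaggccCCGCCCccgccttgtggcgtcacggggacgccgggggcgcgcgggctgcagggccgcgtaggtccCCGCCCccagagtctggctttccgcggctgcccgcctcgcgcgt
HADHB (chr2:26244689-26244938, plus strand): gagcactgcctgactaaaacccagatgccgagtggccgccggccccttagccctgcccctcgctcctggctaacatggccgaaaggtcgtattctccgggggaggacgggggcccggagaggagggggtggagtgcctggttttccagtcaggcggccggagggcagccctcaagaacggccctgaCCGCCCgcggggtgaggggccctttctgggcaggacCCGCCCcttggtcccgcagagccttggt

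GC boxes occurred 4 times before SCD5, 4 times before ELOVL7, 2 times before HADH, 2 times before HADHB and 0 times before ACSL5. The ACSL5 window had 48.8% G and C and 2 CpG, against 80.8% and 35 CpG for ELOVL7, 74.4% and 32 CpG for HADH and 71.2% and 31 CpG for SCD5. Its share lay under the median of 58.0% over all 35116 RefSeq windows, whereas the median of 43 list genes with such a window was 69.2%. RefSeq held 68 windows for 44 list genes, of which 49 had a GC box (72.1%), against 42.6% of all windows, and 22 had a CCAAT box (32.4%), against 32.0%. Motifs of lipid and cytokine regulators were counted on both strands, whether or not they overlapped another motif. The SREBP motif TCACNCCAC was in 2 of the 68 windows (2.94%), of ACSL1 and PNPLA2, against 0.883% of all windows. The E-box CACGTG was in 5 windows (7.35%), against 6.34% of all. The STAT motif TTCNNNGAA was in 3 (4.41%), against 6.57%, and the interferon motif (GAAA, any 2 bases, GAAA) in 1 (1.47%), against 3.02%. Whether these shares differ was not tested. The NF-κB motif (GGGA, any base, TTTCC) and the PPAR motif (AGGTCA, any base, AGGTCA) were in 0 windows (0.527% and 0.0171% of all). The 4 windows of SCD5, ELOVL7, ACSL5 and HADH held none of these 6 motifs. A match is only a run of letters, and no match says only that these letters are not in this window.

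The oxidation genes, from the carnitine shuttle to the peroxisome, moved in both directions. In the deposited count table, 9 of 18 rose, 6 fell and 3 did not pass (median log2 fold change 0.10). There, 18.0% of all loci and 32.0% of abundant ones were higher, and 19.7% and 44.1% were lower. The loci of the oxidation genes, which also hold MYO5B and RABGGTB, summed to 982 FPKM in cytokine cells and 1027 FPKM in control cells in the deposited FPKM table. The carnitine palmitoyltransferases hand acyl groups across the mitochondrial membranes. CPT1A, the widespread form, fell to 2163 counts in cytokine cells, against 2660.02 in control cells in the deposited table (log2 fold change -0.30 ± 0.040). CPT1C, the form known from neurons and located in the endoplasmic reticulum, rose to 5043 counts in cytokine cells, against 4472 in control cells (0.17 ± 0.030). Per length, CPT1C exceeded CPT1A 5.85-fold in cytokine cells and 3.77-fold in control cells in the deposited FPKM table. CPT2, at the inner membrane, did not pass in either table, with 742 counts in cytokine cells and 813 in control cells (-0.13 ± 0.067, adjusted p = 0.112).

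Of the acyl-CoA dehydrogenases, which take the first step of each round, the very-long-chain enzyme stood out. ACADVL (chromosome 17, 7217125 to 7225266) had 10371 normalized counts in cytokine cells and 7021 in control cells in the deposited table, a log2 fold change of 0.56 ± 0.023 (adjusted p = 1.50e-127). Its level was 244 FPKM in cytokine cells and 148 FPKM in control cells in the deposited FPKM table. The medium-chain enzyme ACADM rose by 0.09 ± 0.030 in a locus shared with RABGGTB, which did not pass in the FPKM table (q = 0.195). ACADM transcripts alone summed to 51.7 FPKM in cytokine cells and 48.6 FPKM in control cells. The short-chain enzyme ACADS did not pass (0.10 ± 0.052, adjusted p = 0.113).

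HADH (chromosome 4, 107989714 to 108035241), the short-chain 3-hydroxyacyl-CoA dehydrogenase, had the largest fall among the oxidation genes. In people, loss of HADH causes excess insulin release, and the gene is strongly expressed in beta cells. It had 13464 normalized counts in cytokine cells and 27929.7 in control cells in the deposited table, a log2 fold change of -1.05 ± 0.018, with an adjusted p listed as 0. In the deposited FPKM table it was at 169 FPKM in cytokine cells and 342 FPKM in control cells. It was the third most abundant list locus in control cells, after SCD and FADS2, and the fifth in cytokine cells, after those and ACADVL and ACLY. Its leading transcript, ENST00000309522.6, had 153 FPKM in cytokine cells and 312 FPKM in control cells, 92.5% and 93.2% of the named transcripts of the gene in cytokine and control cells, and was lower (q = 0.000833 in the deposited isoform table).

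HADHA and HADHB encode the subunits of the mitochondrial trifunctional protein, which oxidises long chains, and are read in opposite directions from starts 307 bases apart on chromosome 2. HADHA fell to 5493 counts in cytokine cells, against 6599 in control cells in the deposited table (-0.26 ± 0.027). HADHB rose to 4443 counts in cytokine cells, against 3869.95 in control cells (0.20 ± 0.032), and both passed in the FPKM table with the same signs (q = 0.0181 and 0.0329). Their FPKM ratio, HADHB over HADHA, was 1.24 in cytokine cells and 0.904 in control cells in the deposited table. The gap between their starts is spanned in part by the HADHB window. The labels describe a directional library, but the sources used here do not give the strand setting of the counting, and the annotated spans of the pair overlap.

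Enzymes that handle double bonds during oxidation differed from one another. DECR1 (chromosome 8, 90001405 to 90053633), the mitochondrial 2,4-dienoyl-CoA reductase needed for polyunsaturated chains, had the largest rise of the oxidation genes. It had 1984 normalized counts in cytokine cells and 862 in control cells in the deposited table, a log2 fold change of 1.202 ± 0.054 (adjusted p = 2.87e-108), and 43.3 FPKM in cytokine cells and 19.0 FPKM in control cells. ECI1 and ECI2, the enoyl-CoA isomerases, moved in opposite directions. ECI2, of mitochondria and peroxisomes, had 777 counts in cytokine cells and 474 in control cells (0.71 ± 0.075), and 2 of its transcripts rose in the deposited isoform table. ECI1, of mitochondria, fell to 1269 counts in cytokine cells, against 1708 in control cells in the deposited table (-0.43 ± 0.051). In the deposited FPKM table ECI1 was at 42.8 FPKM in cytokine cells and 56.7 FPKM in control cells, and ECI2 at 31.7 FPKM in cytokine cells and 20.5 FPKM in control cells.

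For ACAA2, the last enzyme of the round, the direction depended on what was counted. Its locus rose by 0.26 ± 0.025 in the deposited count table but did not pass in the FPKM table (log2 fold change 0.07, q = 0.54). The locus also holds MYO5B, a motor protein, and 7 unnamed transcripts. ACAA2 transcripts alone summed to 20.6 FPKM in cytokine cells and 25.2 FPKM in control cells in the deposited isoform table, a log2 ratio of -0.29, with none past the threshold. MYO5B transcripts summed to 15.0 FPKM in cytokine cells and 6.31 FPKM in control cells, and 2 of them rose.

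**Figure D3:**
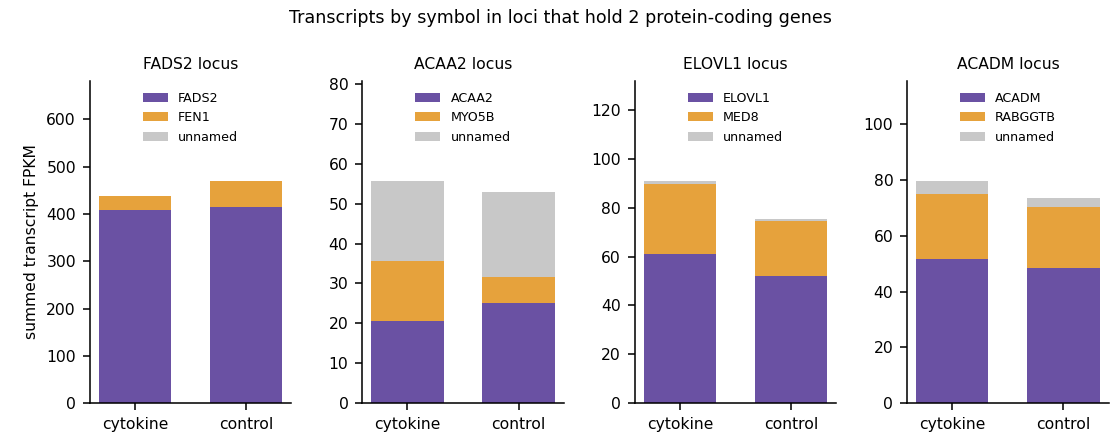
Summed transcript FPKM in the deposited isoform table for the loci of FADS2, ACAA2, ELOVL1 and ACADM, split by gene symbol, with cytokine cells left of control cells in each panel; axes start at 0 and differ in scale. FEN1 stands at 29.1 FPKM in cytokine cells and 55.8 FPKM in control cells at the FADS2 locus, and MYO5B at 15.0 FPKM in cytokine cells and 6.31 FPKM in control cells at the ACAA2 locus.

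The electron transfer flavoprotein and its dehydrogenase pass electrons from the acyl-CoA dehydrogenases to the respiratory chain. ETFA had 3169.68 counts in cytokine cells and 3450.47 in control cells in the deposited table (-0.12 ± 0.036), and did not pass in the FPKM table (q = 0.286). ETFDH fell to 2089.66 counts in cytokine cells, against 2579 in control cells (-0.30 ± 0.042). ETFB, the partner of ETFA, was listed at 0.0310 FPKM in cytokine cells and 0.0538 FPKM in control cells, near 0 beside 72.9 and 78.1 FPKM for ETFA in cytokine and control cells. It had 1.4496 counts in cytokine cells and 2.73 in control cells and did not pass (adjusted p = 0.701). Its fitted log2 fold change of -0.92 has an SE of 1.38, and whether this low value is a failed estimate was not tested. In peroxisomes, ACOX3 and ACAA1, an oxidase and a thiolase, rose by 0.15 ± 0.057 and 0.19 ± 0.058 in the deposited count table, both by less than 1.2-fold. ACAA1 was also higher in the FPKM table (q = 0.000232), and ACOX3 did not pass there (q = 0.662). Unnamed transcripts held 53.3% of the ACOX3 locus FPKM in cytokine cells and 56.5% in control cells.

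Triglyceride storage adds acyl-CoA to glycerol 3-phosphate, removes the phosphate and adds a last chain. Of 6 storage genes, 4 fell, 1 rose and 1 did not pass in the deposited count table (median log2 fold change -0.29). There, 19.7% of all loci and 44.1% of abundant ones were lower, and 18.0% and 32.0% were higher. GPAM, the mitochondrial enzyme of the first step, had 385 counts in cytokine cells and 715 in control cells in the deposited table (-0.89 ± 0.081, adjusted p = 4.57e-27). AGPAT2, of the second step and the most abundant of the group, was at 69.2 FPKM in cytokine cells and 78.4 FPKM in control cells (-0.16 ± 0.033 in the deposited count table). DGAT2 (chromosome 11, 75759512 to 75801535), one of the enzymes of the last step, had 240.2 counts in cytokine cells and 519.9 in control cells in the deposited table, a log2 fold change of -1.11 ± 0.098 (adjusted p = 4.67e-29). DGAT1, the other, had 508 counts in cytokine cells and 678 in control cells (-0.42 ± 0.078). Per length, DGAT1 exceeded DGAT2 2.68-fold in cytokine cells and 1.797-fold in control cells in the deposited FPKM table.

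LPIN1 (chromosome 2, 11677595 to 11827409), a phosphatidate phosphatase that also acts in the nucleus as a coactivator, was the one storage gene that rose in the count table. It had 9201 normalized counts in cytokine cells and 5189 in control cells in the deposited table, a log2 fold change of 0.83 ± 0.025 (adjusted p = 2.53e-232). Its leading named transcript, ENST00000256720.5, had 22.04 FPKM in cytokine cells and 15.3 FPKM in control cells in the deposited isoform table. An unnamed transcript of the locus had 8.54 FPKM in cytokine cells and 2.65 FPKM in control cells there, and both rose. LPIN2, its relative, did not pass in the count table (0.07 ± 0.062, adjusted p = 0.446) but was higher in the deposited FPKM table, at 13.7 FPKM in cytokine cells and 11.8 FPKM in control cells (q = 0.00413).

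The genes of lipolysis and of the droplet coat differed by less than 0.5 on the log2 scale. PNPLA2, the first lipase of triglyceride breakdown, had 1811 counts in cytokine cells and 1871 in control cells in the deposited table and did not pass (-0.05 ± 0.046, adjusted p = 0.513). The locus of LIPE, hormone-sensitive lipase, fell to 757 counts in cytokine cells, against 931 in control cells in the deposited table (-0.30 ± 0.065). It did not pass in the FPKM table (q = 0.466). Unnamed transcripts held 72.9% of the locus FPKM in cytokine cells and 74.2% in control cells. Named LIPE transcripts summed to 2.45 FPKM in cytokine cells and 2.72 FPKM in control cells, a log2 ratio of -0.15. PLIN2 and PLIN3, coat proteins of droplets in most cells, stood at 0.10 ± 0.037 and -0.18 ± 0.054 in the deposited table, with PLIN2 at 37.5 FPKM in cytokine cells and 34.4 FPKM in control cells. Both passed in the count table, and neither passed in the FPKM table (q = 0.128 and 0.174).

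Among regulators, the nuclear receptors PPARA and PPARD, which bind fatty acids and switch on oxidation genes, both fell. PPARD had 910.3 counts in cytokine cells and 1276 in control cells in the deposited table (-0.49 ± 0.061), and PPARA 1311 in cytokine cells and 1654 in control cells (-0.34 ± 0.052, q = 0.0946 in the FPKM table). Both were low, PPARD at 6.53 FPKM in cytokine cells and 8.73 FPKM in control cells, and PPARA at 6.35 FPKM in cytokine cells and 7.84 FPKM in control cells. PPARGC1A, their coactivator, was not tested, with 1.64 counts in cytokine cells and 0.609 in control cells in the deposited table.

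Summed FPKM in the deposited table were 1445 in cytokine cells and 1478 in control cells for synthesis and desaturation, 244 in cytokine cells and 237 in control cells for elongation, and 228 in cytokine cells and 229 in control cells for storage and release. They were 12.9 in cytokine cells and 16.6 in control cells for the regulators, and activation is given above. Over the loci of all 50 genes the sums were 2997 in cytokine cells and 3056 in control cells. All these sums take whole loci, so they include other genes that share a locus with a list gene. FEN1 transcripts, within synthesis and desaturation, summed to 29.1 FPKM in cytokine cells and 55.8 FPKM in control cells. MED8 transcripts, within elongation, summed to 28.7 FPKM in cytokine cells and 22.5 FPKM in control cells. Desaturation had 4 of 4 lower and activation 4 of 4 higher in the deposited count table, against 1 of 4 lower and 3 of 4 higher in the FPKM table. Of abundant loci, 44.1% were lower and 32.0% higher in the count table. Of genes tested in the FPKM table, 17.9% were lower and 17.8% higher. SCD turned to 0.016 when fold changes were re-centred on abundant loci. Such differences between groups of genes were not tested, since the genes share libraries and were chosen with earlier results known.

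**Figure D4:**
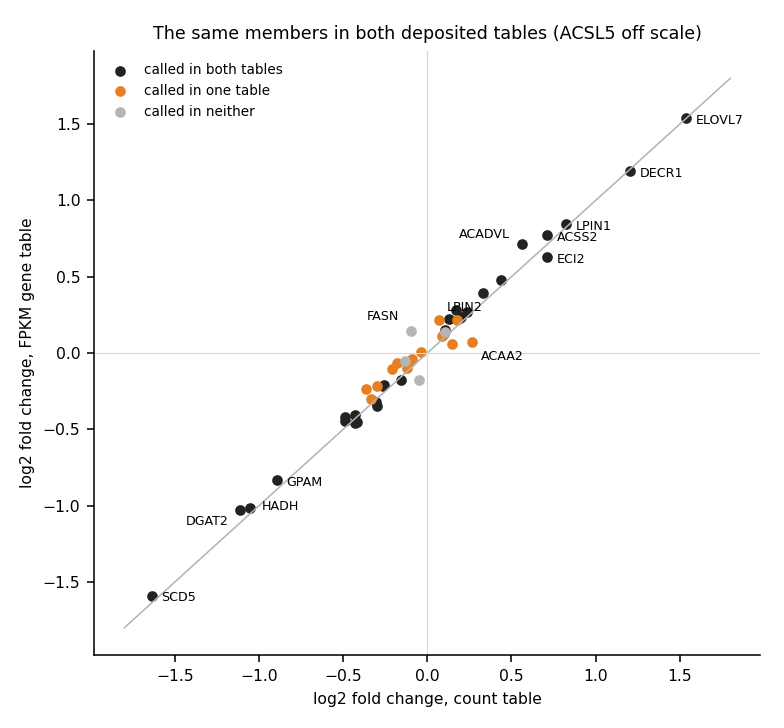
Log2 fold changes of list genes in the deposited count table (horizontal) and the deposited FPKM gene table (vertical), both cytokine over control, with the line of equal values; black points passed in both tables, orange in one and grey in neither, and ACSL5 lies outside the axes. The plotted genes beyond 0.5 passed in both, ETFB was not tested in the FPKM table and has no point, and FASN, at -0.10 in the count table and 0.14 in the FPKM table, lies off the line.

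Single transcripts gave fewer calls. The deposited isoform table listed 538 transcripts of the 50 genes and tested 266. Of these, 10 were higher and 11 lower at a q threshold of 0.05, against 9.87% of 95649 transcripts tested, 5.17% as higher and 4.7% as lower. These 21 transcripts belonged to 19 genes, 8 with higher and 11 with lower transcripts, and all 21 were protein-coding. Of them, 16 were the transcript of their gene with the highest FPKM in control cells. None of the 19 genes had transcripts past the threshold in both directions. ACLY and ACACA each had 1 lower transcript that was not the leading one of the gene. ENST00000393896.5 of ACLY had 26.1 FPKM in cytokine cells and 38.01 FPKM in control cells, 13.1% and 18.7% of the named ACLY transcripts. ENST00000614428.3 of ACACA had 4.59 FPKM in cytokine cells and 6.66 FPKM in control cells, 27.3% and 36.1% of the named ACACA transcripts. Unnamed transcripts held a further 26.1% of the ACACA locus in cytokine cells and 31.1% in control cells.

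Other genes of fatty acid metabolism, drawn from textbook pathways, were also measured. Of 101 tested, 28 were higher, 43 lower and 30 not past the threshold in the deposited count table. There, 18.0% of all loci and 32.0% of abundant ones were higher, and 19.7% and 44.1% were lower. The median log2 fold change of the 101 genes was -0.08. Those changed by at least 1 on the log2 scale were MGLL, ELOVL3, G0S2, FITM2 and FABP5. MGLL, which splits the last chain from glycerol, had 378 counts in cytokine cells and 71.6 in control cells in the deposited table (2.40 ± 0.15). G0S2, an inhibitor of the lipase PNPLA2, fell to 54.7 counts in cytokine cells, against 232 in control cells (-2.08 ± 0.18). FITM2, which helps droplets form at the endoplasmic reticulum, fell to 354 counts in cytokine cells, against 943 in control cells (-1.41 ± 0.079). FABP5, a carrier of fatty acids in the cytosol, fell to 205 counts in cytokine cells, against 462 in control cells in the deposited table (-1.17 ± 0.11). ELOVL3, an elongase of low level here, had 29.5 counts in cytokine cells and 12.6 in control cells (1.22 ± 0.42).

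By role, the other genes of storage and lipolysis had 6 higher and 7 lower of 18 tested in the deposited count table. Those of mitochondrial oxidation had 4 higher and 4 lower of 11. For these and the roles below, 18.0% of all loci and 32.0% of abundant ones were higher, and 19.7% and 44.1% were lower. Other peroxisomal oxidation genes had 0 higher and 8 lower of 12, beside 19.7% lower of all loci and 44.1% of abundant ones. PHYH, which starts the breakdown of phytanic acid, was the lowest of those past the threshold, at -0.66 ± 0.074. Uptake, activation and thioesterase genes had 5 higher and 7 lower of 18. Among them SLC27A2 rose by 0.79 ± 0.053 and SLC27A4 stood at -0.71 ± 0.039 in the deposited table, both acyl-CoA synthetases that aid uptake.

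The transcription factors of lipid synthesis did not move one way. SREBF1 and SREBF2, which drive fatty acid and cholesterol genes, fell, at -0.23 ± 0.023 and -0.32 ± 0.018 in the deposited table. INSIG1, which holds them back and is also their target, rose by 0.58 ± 0.023. MLXIPL, the carbohydrate-responsive factor ChREBP, rose by 0.42 ± 0.023, to 121 FPKM in cytokine cells, against 89.4 FPKM in control cells in the deposited FPKM table. PPARG was not tested, with 0.482 counts in cytokine cells and 0.135 in control cells. PDK4 and UCP2, known targets of the PPAR receptors, fell by 0.92 ± 0.083 and 0.81 ± 0.038 in the deposited table.

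**Figure D5:**
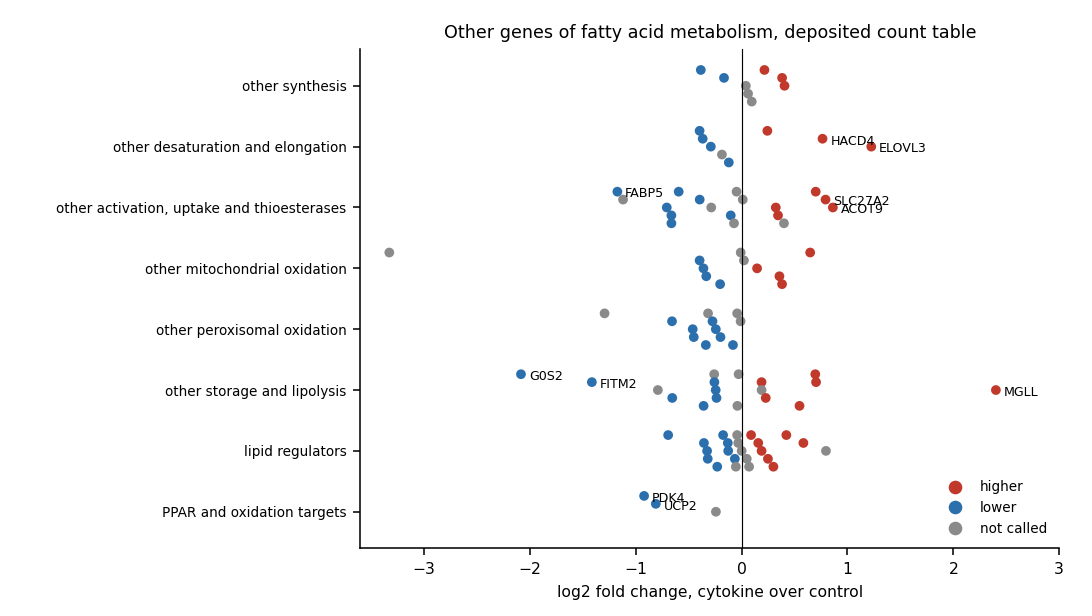
Deposited log2 fold changes, cytokine over control, of 101 tested genes of fatty acid metabolism outside the list of 50, in rows by role; red points were higher, blue lower and grey not past the adjusted p threshold of 0.05, and genes past it beyond 0.75 are named. MGLL at 2.40 and G0S2 at -2.08 lie farthest out among those past the threshold, and all 12 peroxisomal genes lie under 0.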

How the data were processed

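The study measured poly(A) RNA of EndoC-betaH1 cells in 3 cytokine and 3 control libraries. Per the submitters' processing notes, the genome build was hg38 and the tools were STAR 2.5.2b, StringTie, DESeq, Cuffdiff 2.2.1, FastQC 0.10.1 and bcl2fastq. The sources used here name neither the read counter and its strand setting nor the annotation.

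Only the authors' comparison was at hand, so the adjusted p-values and q-values are those the authors deposited, and the planned tests on values per library were not run. Per the file headers, the authors' count tables have the columns that DESeq2 writes. Their signal is, as deposited, a mean normalized count over all libraries. The log2 values that the authors deposited are fold changes of cytokine over control, with their SE. Each tool's test statistic is the score deposited beside them. The FPKM values deposited from Cuffdiff are 1 value for each group, and the smallest q-value for genes was 0.000232.

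Group means of counts were derived from that mean and the fold change. Transcript FPKM were summed by symbol within a locus. Calls used an adjusted p or q under 0.05, adjusted over all loci of a table. The steps were tested on simulated data.

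The members and the lists of other genes were chosen with earlier results of these data known. All 50 members are named. Full values went to the largest called rise and fall and the highest FPKM of each role, and to called members of at least 0.5 on the log2 scale. Of other genes, those called at 1 or more were named, with SREBF1, SREBF2, INSIG1, MLXIPL and PPARG. PHYH, SLC27A2, SLC27A4, PDK4 and UCP2 were chosen after their values were seen, as were the GC box and the CCAAT box. Of other genes, 6 were matched by older symbols. Coordinates came from GENCODE release 44 and promoter windows from RefSeq (GRCh38.p14). Analyses ran in Python 3.11.15 (pandas 2.3.3, matplotlib 3.10.9, scipy 1.17.1, numpy 2.4.6).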

Additional observations from a re-analysis of the deposited data

How the results depend on the processing

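Alternatives were the FPKM table in place of the count table, an adjusted p of 0.01, re-centring on loci of at least 1000 counts (a shift of -0.06), no filter or one of at least 50 counts, loci of 1 symbol, and a change of at least 1.2-fold. Of 49 members, 23 kept direction and side of the threshold under each of these that gave them a value, 21 of them called. Of the 23, ETFB gave none in the FPKM table or at 50 counts, and ACACB, ACSL4 and DGAT1 none as loci of 1 symbol.

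At 1.2-fold, 10 members were higher and 15 lower, with 3 lower for synthesis and desaturation, 2 higher and 1 lower for elongation, 2 higher for activation, 4 higher for oxidation and 1 higher for storage and release. The FPKM table gave 14 lower members, a median of -0.016, 2 lower for synthesis and desaturation and 1 lower regulator. Loci of 1 symbol gave 4 lower for synthesis and desaturation, and an adjusted p of 0.01 gave 1 higher for storage and release. Re-centring gave a median of -0.034, and 6197 higher and 5142 lower loci in all, against 5442 and 5946 as deposited. Signs turned for FASN (0.14) and SCD (0.0061) in the FPKM table, and for SCD (0.016) and PNPLA2 (0.0089) after re-centring. With own transcripts only, chosen after seeing the data, ACAA2 turned to -0.29. That sum leaves out MYO5B and 7 unnamed transcripts and is in FPKM, not counts. The cause was not tested for any of these.

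No paired analysis was possible because the tables hold the comparison alone and their columns carry no replicate numbers. Leaving out single libraries was not run for the same reason. Few counts lie behind the values of ACSL5 in control cells, ETFB and PPARGC1A.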

Other observations

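Fatty acid entry and acyl-CoA hydrolysis held further called genes, chosen after their values were seen. CD36, a fatty acid transporter, had 162 counts in cytokine cells and 257 in control cells in the authors' deposited table (log2 fold change -0.66 ± 0.13). The mitochondrial thioesterases ACOT9 and ACOT13, which release free fatty acids from acyl-CoA, rose by 0.86 ± 0.10 and 0.70 ± 0.091 in the deposited table. ACOT7, a cytosolic thioesterase, stood at -0.40 ± 0.052. In phospholipid and triglyceride assembly, AGPAT3 and AGPAT4 rose by 0.55 ± 0.037 and 0.70 ± 0.045 and LPIN3 by 0.70 ± 0.051 in the deposited table, while GPAT4 stood at -0.65 ± 0.026. GPAT4, an enzyme of the same first step as GPAM at the endoplasmic reticulum, was at 56.5 FPKM in cytokine cells and 80.9 FPKM in control cells in the deposited FPKM table, where GPAM was at 1.36 FPKM in cytokine cells and 2.43 FPKM in control cells.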
